A study of Mus musculus with 12 samples.

Results

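The genes described here are the matrix metalloproteinases (Mmp), their tissue inhibitors (Timp) and the ADAMTS and ADAMTS-like proteins (Adamts, Adamtsl), followed across injured and regenerating dystrophic muscle. They were taken by symbol: every gene whose name starts with Mmp and a number, Timp and a number, or Adamts. This choice was made with earlier results of these data known. Among the 28116 deposited genes, 48 carry such a name, 20 Mmp, 4 Timp, 19 Adamts and 5 Adamtsl genes. The 38 that reached 0 log2 CPM, or 1 CPM (read counts scaled to library size), in at least 3 of the 12 libraries are described, 13 Mmp, all 4 Timp, 16 Adamts and all 5 Adamtsl genes.

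RNA was sequenced from tibialis anterior muscle of mdx mice (strain label C57BL/10ScSn-Dmdmdx/J), which lack functional dystrophin and model Duchenne muscular dystrophy, at 4 months of age. All 12 muscles had received cardiotoxin, a venom toxin that destroys fibres and starts regeneration. It was injected together with anti-miR106b, which blocks the microRNA miR-106b, or with antimiR-Scrambled as the control, and muscle was collected 3 or 7 days later. The submitters' design text gives a different day for the later collection in 1 place, while every label says 3 or 7, the days used here. Each of the 4 groups, the scrambled and the anti-miR-106b arm at either time, holds 3 animals. The labels describe no muscle without cardiotoxin, without the mdx mutation or before injury, so every difference below is between injured mdx muscles. Nothing in the labels ties a muscle of 1 group to an animal of another, and the libraries were treated as independent.

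Matrix metalloproteinases are zinc proteases that are secreted or held at the cell surface as inactive precursors and that cut collagens, elastin, laminins and other matrix proteins once a propeptide is removed. TIMPs bind their active site and block it. ADAMTS proteases share the zinc site but add thrombospondin repeats that hold them in the matrix, where they cut proteoglycans, process procollagens or act on fibrillin microfibrils, while ADAMTS-like proteins have the repeats and no protease domain. In injured muscle these enzymes clear damaged matrix and open the basal lamina around fibres, and macrophages, fibroblasts and myogenic cells all make some of them.

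The 10 genes below the limit were Mmp7, Mmp10, Mmp16, Mmp17, Mmp21, Mmp24, Mmp28, Adamts13, Adamts18 and Adamts19. Mmp7, the matrilysin of epithelia, was lowest, with -4.75 log2 CPM as its highest value in any library. Closest below the limit came Mmp28 (highest value 0.38), Mmp17 (0.36) and Adamts19 (0.30), each above 0 in 1 library, and Mmp16 (0.21), above 0 in 2. Just inside were Adamts3 and Mmp25, at or above 0 in 4 libraries each, Mmp8 and Mmp27 in 6, Adamts17 in 7 and Adamts16 in 8. Mmp8, Mmp25 and Mmp27 passed the limit through day 3 libraries only, so a fall of these 3 genes by day 7 was favoured by the way they were kept.

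Libraries held 28857739 to 42825246 reads, and 1 CPM stood for 28.1 to 46.9 reads. Summed markers of mature fast fibres, which check the labelled tissue, lay between 46130 and 160800 CPM in every library. The authors' scaling factors differed between groups (1.09 to 1.15 for scrambled and 1.26 to 1.32 for anti-miR-106b at day 3, 0.80 to 0.89 at day 7), as did the mitochondrial share of reads (7.54% to 7.76%, 4.80% to 4.83% and, over both day 7 groups, 8.18% to 10.7%). Libraries of day 7 lay farther from their group means than those of day 3. The farthest in each arm were scrambled replicate 1, at a root mean square distance of 0.259 on the log2 scale, and anti-miR-106b replicate 2, at 0.227. Results that change without either are given with each gene.

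The inhibitor is directed at miR-106b, whose mature 5p strand lies on chromosome 5, 138165787 to 138165807, minus strand (GRCm38.p6, RefSeq). Its seed, bases 2 to 8, is in capitals below because a messenger RNA is recognised through a match to these bases. The 3′ UTRs of the 38 genes (longest GENCODE M21 transcript) were searched for GCACTTTA, and for its parts GCACTTT and CACTTTA, on the sense strand. None of the 38 held the 8-base match, which 4.43% of 12923 tested genes with a 3′ UTR held. A match of at least 7 bases was found in 6 of 38 (15.8%), against 22.0% of all tested genes, and the 5 sites of the 4 genes that passed for the inhibitor at day 3 (below) are shown with the match in capitals; the other two, Mmp15 and Adamts2, did not pass there, each written as DNA. Adamts5 held matches of both kinds, and the Mmp23 UTR is short and carries its match close to the end. A letter match is no evidence of binding.
miR-106b-5p: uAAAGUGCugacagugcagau
Mmp23 UTR site: cagcagataaaGCACTTTctctctga
Timp2 UTR site: cattagactttGCACTTTtaaaaaaaaaa
Timp3 UTR site: cgttttcattcCACTTTAgaaacacagtt
Adamts5 UTR site A: ccttagtatgtCACTTTAtaaacttggtc
Adamts5 UTR site B: gtgtataaagtGCACTTTgtgagtttata

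Several members are neighbours. On chromosome 9 the genes Mmp13, Mmp12, Mmp3, Mmp10, Mmp8, Mmp27 and Mmp7 lie in this order on the plus strand within 427.1 kb, and 5 of the 7 were expressed above the limit. Start-site windows of those 5 are printed because these neighbours are compared along the cluster further on. Each window runs from 80 bases before to 20 bases after the RefSeq start (GRCm38.p6, plus strand). Capitals mark TGANTCA, the AP-1 motif, which reads the same on both strands.
Mmp13, chr9:7272434-7272533: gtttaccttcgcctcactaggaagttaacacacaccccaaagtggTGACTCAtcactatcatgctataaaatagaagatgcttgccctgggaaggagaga
Mmp12, chr9:7347294-7347393: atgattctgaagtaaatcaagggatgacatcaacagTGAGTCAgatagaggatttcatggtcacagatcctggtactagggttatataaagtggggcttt
Mmp3, chr9:7445742-7445841: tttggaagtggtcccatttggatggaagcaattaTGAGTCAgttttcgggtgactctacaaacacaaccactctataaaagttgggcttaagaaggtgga
Mmp8, chr9:7558349-7558448: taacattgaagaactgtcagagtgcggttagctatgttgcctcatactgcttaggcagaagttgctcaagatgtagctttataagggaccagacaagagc
Mmp27, chr9:7571316-7571415: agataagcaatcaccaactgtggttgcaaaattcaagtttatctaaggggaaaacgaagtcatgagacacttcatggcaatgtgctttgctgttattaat

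The motif began 35 bases before the start of Mmp13, 44 before that of Mmp12 and 46 before that of Mmp3. RefSeq promoters of 300 bases were at hand for 26 of the 38 genes, and these 3 were the ones among them that held the motif, against 7.8% of 32851 mouse promoters. TATAAA, searched on the gene's strand, was in the promoters of Mmp3, Mmp12, Mmp13, Adamts1 and Adamtsl2, against 8.3% of all promoters. No TGANTCA was in the Mmp8 and Mmp27 windows. Such matches describe letters only.

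Per length, 2 of the inhibitors were the strongest genes of the family at day 3. Dividing CPM by kilobases of exon (GENCODE M21), so that genes can be compared, put Timp2 at 90.5 ± 2.1 CPM per kb in scrambled muscle at day 3, Timp1 at 74.4 ± 6.8 and the gelatinase Mmp2 at 66.2 ± 3.6 (SD, n = 3). The libraries of Timp1 (67.9 to 81.4) and Mmp2 (62.7 to 69.8) overlapped. The next levels were 26.8 ± 1.3 for Mmp13, 20.6 ± 0.4 for Mmp3 and 19.8 ± 0.9 for Mmp14, of which Mmp3 and Mmp14 did not separate by their spread. At day 7 Mmp2 (59.9 ± 11.1 in scrambled muscle) and Timp2 (57.7 ± 8.2) were level within their spread, and both means were above that of Timp1 (32.7 ± 8.5). The strongest ADAMTS-family gene was Adamtsl5 at 13.3 ± 0.4, and the strongest ADAMTS protease was Adamts2 at 6.91 ± 0.55 CPM per kb. At the other end Adamts3, Adamts16 and Adamts17 stayed at 0.168 ± 0.038, 0.156 ± 0.042 and 0.147 ± 0.060 CPM per kb in the same group.

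**Figure D1:**
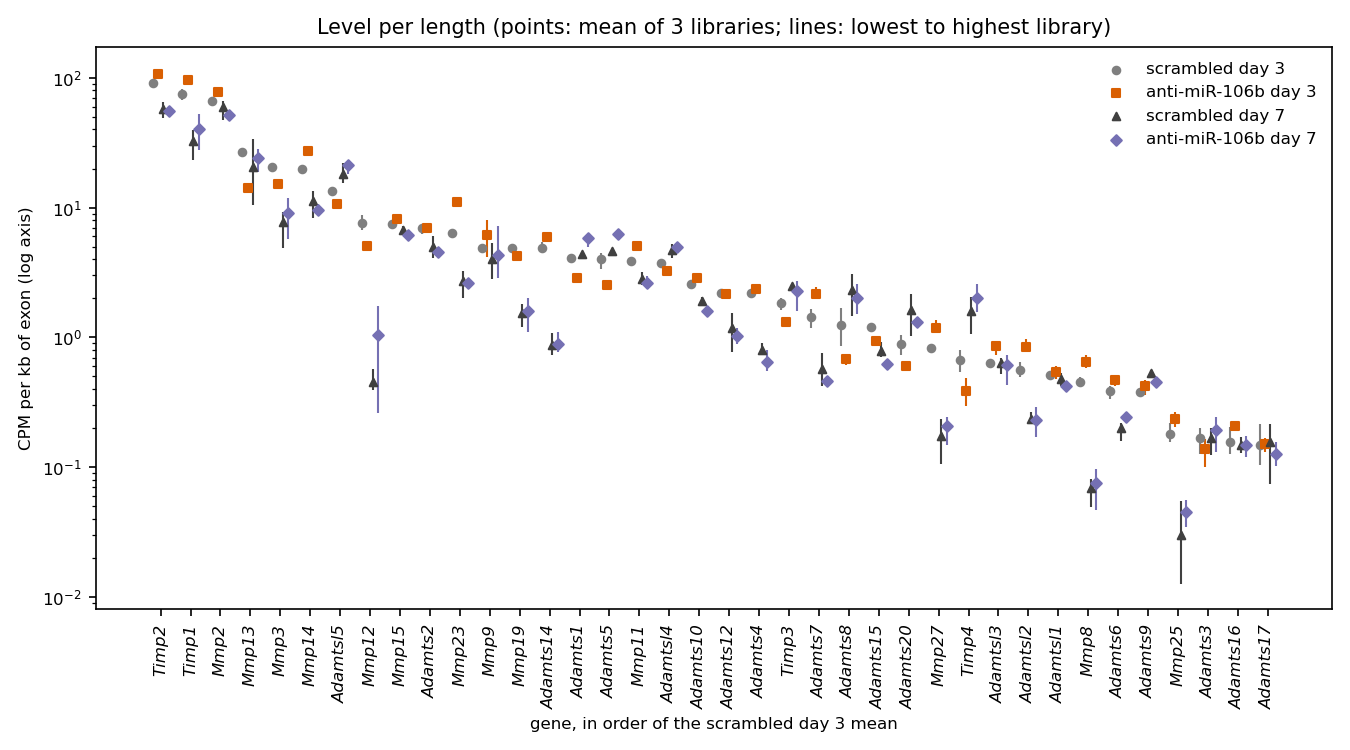
Level per length of the 38 genes in the 4 groups. The vertical axis is CPM per kb of exon on a log scale, points are means of 3 libraries and lines run from the lowest to the highest library; Timp2, Timp1 and Mmp2 are at the top in every group, and Mmp12 spans 7.65 to 0.454 CPM per kb between scrambled day 3 and scrambled day 7.

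At day 3 the inhibitor separated 14 of the 38 genes from scrambled muscle, and it did so in both directions. Higher with anti-miR-106b were the membrane-bound proteases Mmp14 and Mmp23, the stromelysin Mmp11, the inhibitor Timp2, the cartilage-matrix protease Adamts7 and the fibrillin-binding Adamtsl2, by 1.18 to 1.72 times. Lower were the collagenase Mmp13, the inhibitors Timp3 and Timp4, 4 proteoglycanases (Adamts1, Adamts5, Adamts8 and Adamts15) and Adamtsl5, by 1.26 to 1.89 times. Passing means an adjusted p below 0.05 with limma and Benjamini-Hochberg adjustment over 14063 genes. The 6 higher and 8 lower genes are 36.8% of 38, and over all tested genes 35.7% passed, 16.3% higher and 19.4% lower, so the family's share is near the background. Its median difference was 0.11 against 0.01 on the log2 scale for all tested genes. The 3 animals per arm did not overlap for 26 genes (all tested genes: 60.5%).

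The split of directions rests on the scaling. With total read counts in place of the authors' factors the median of all genes moves to 0.20, 46.6% of all genes pass, and 15 of the 38 genes are higher and 3 lower, the 3 being Mmp13, Adamts1 and Adamts5. Mmp23, Adamts1 and Adamts5 kept their call under all 25 alternatives, and 11 of the 14 lost it in at least 2.

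**Figure D2:**
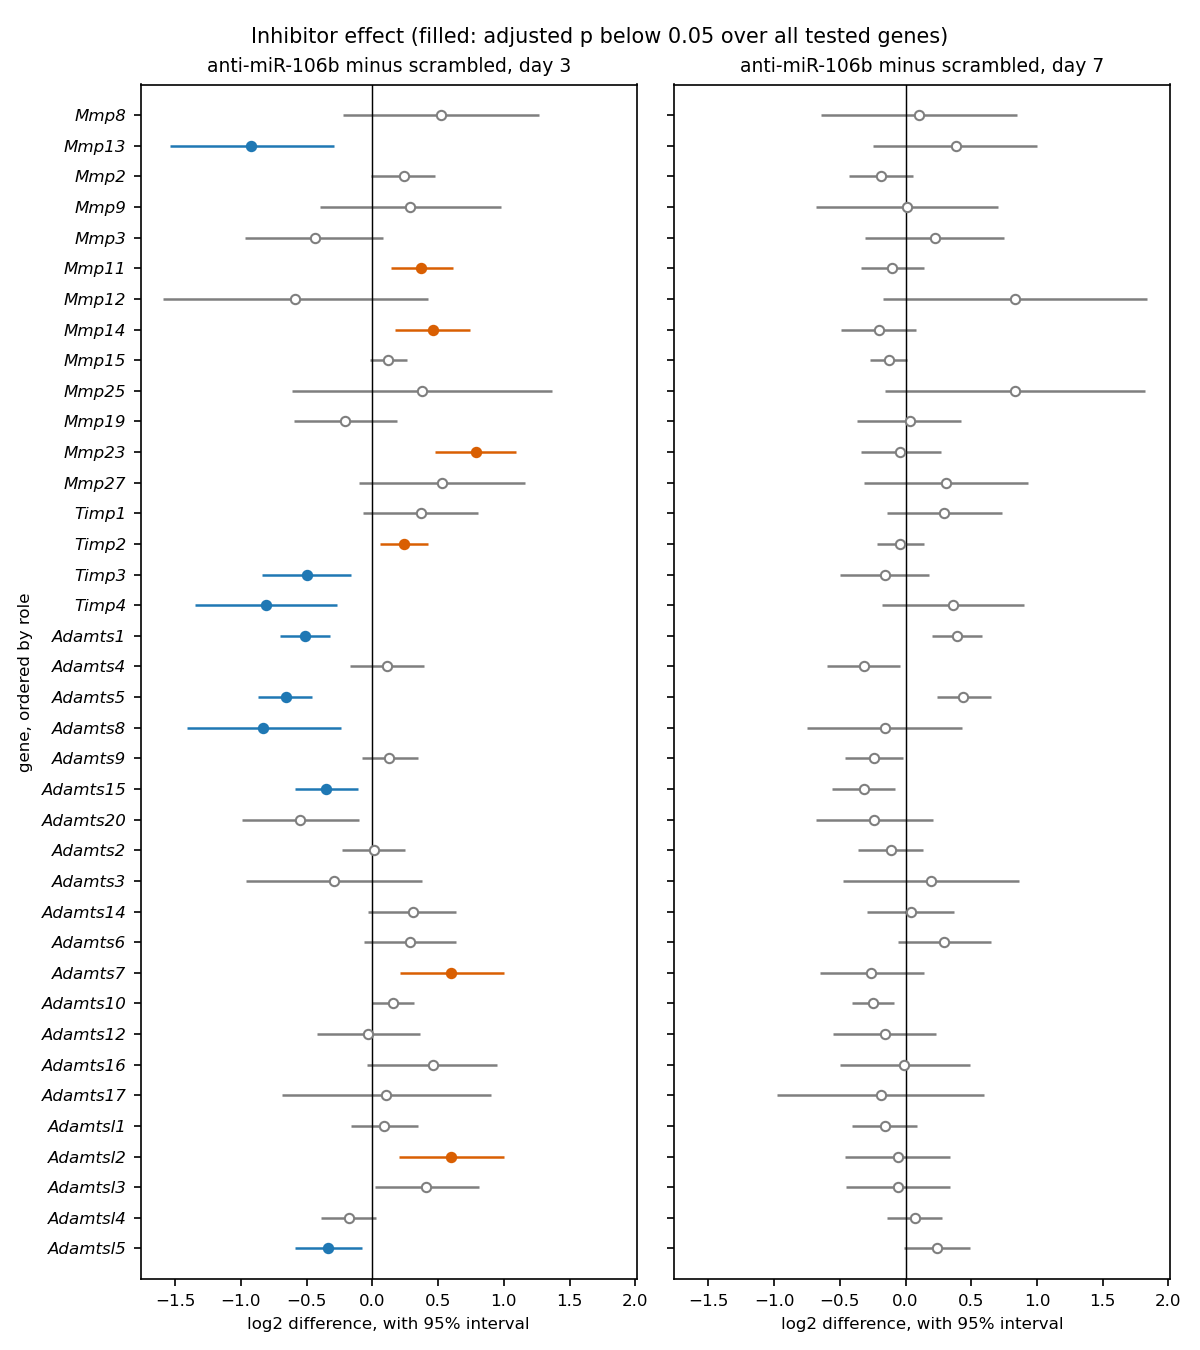
Inhibitor effect on each of the 38 genes at day 3 (left) and day 7 (right). The horizontal axis is the log2 difference, anti-miR-106b minus scrambled, with its 95% interval from limma, and filled points (orange higher, blue lower) have an adjusted p below 0.05; 14 points are filled at day 3 and none at day 7.

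At day 7 none of the 38 genes passed with limma, and 9 of 14063 genes (0.064%) did. At an unadjusted p below 0.05 there were 6 of the 38 genes, Adamts1, Adamts4, Adamts5, Adamts9, Adamts10 and Adamts15, beside 1580 (11.2%) of all genes. The arms did not overlap for Adamts1, Adamts5, Adamts6, Adamts9, Adamts10 and Adamts15, 6 genes where 10.9% of all genes did not overlap. Voom weights in limma on the recovered reads also gave 0. Day 7 depends on single libraries: without scrambled replicate 1, when 3.2% of all genes passed, 5 of the 38 did, Mmp13 (0.38 with all libraries and 0.82 without it, adjusted p = 0.0337), Adamts5 (0.0407) and Adamtsl5 (0.0472) higher and Mmp2 (0.0308) and Mmp14 (0.0224) lower. Without anti-miR-106b replicate 2, when 0.5% of all genes passed, 3 of the 38 were higher, Mmp12 (1.64, adjusted p = 0.00487), Adamts1 (0.0205) and Adamts5 (0.0484).

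Between day 3 and day 7 more of the 38 genes fell than rose. In scrambled muscle 21 of 38 genes fell and 7 rose, and with anti-miR-106b 24 fell and 9 rose. Of all tested genes 68.2% passed in scrambled muscle, 32.9% higher and 35.3% lower, while 55.3% of the 38 genes were lower. With anti-miR-106b 78.7% of all genes passed, 37.9% higher and 40.8% lower, while 63.2% of the 38 were lower. The family's medians were -0.48 and -0.60 on the log2 scale, with -0.00 and -0.02 for all tested genes. Mmp8, Mmp25 and Mmp27 reached 1 CPM at day 3 and in no day 7 library, so they entered through the day on which they were high, and the counts and medians above include them. Total-count scaling moves the medians of all genes to -0.41 and -0.65 and gives 1 higher and 26 lower genes in scrambled muscle (71.6% of all genes passing) and 5 and 28 with anti-miR-106b (83.5%). Both arms are bulk tissue, in which fewer cells of a type and less RNA per cell cannot be told apart.

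**Figure D3:**
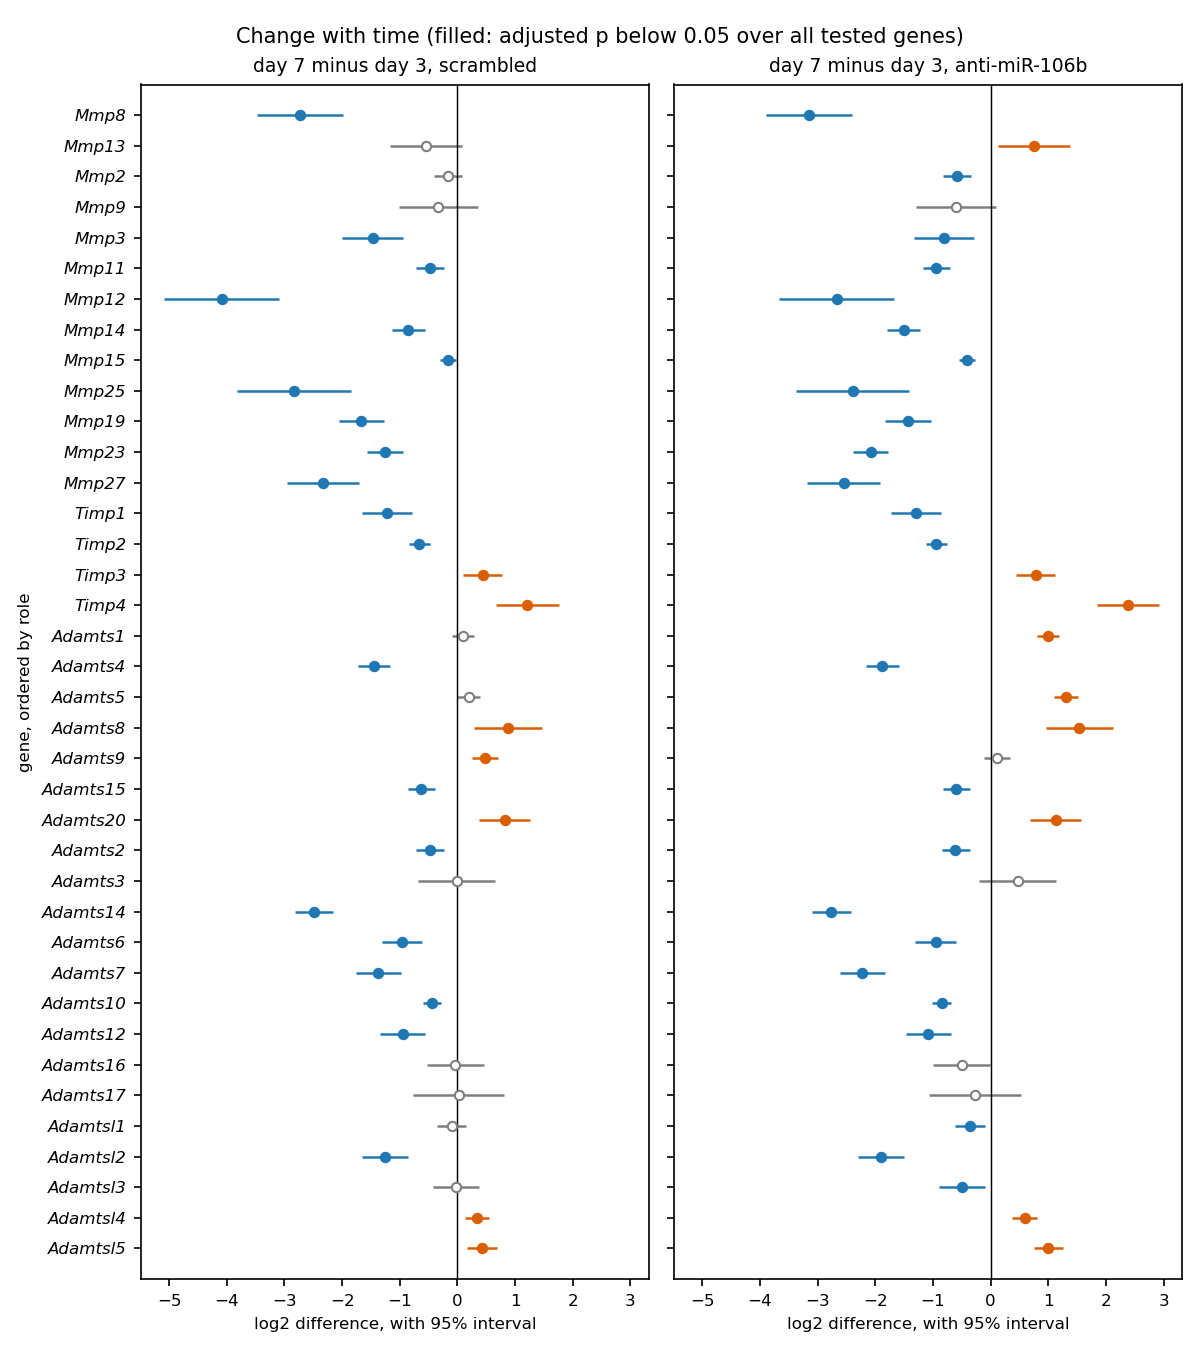
Change from day 3 to day 7 for each of the 38 genes in scrambled (left) and anti-miR-106b (right) muscle. The horizontal axis is the log2 difference with its 95% interval, and filled points (orange higher, blue lower) have an adjusted p below 0.05; Mmp12 lies farthest left in scrambled muscle at -4.09 and Timp4 farthest right with anti-miR-106b at 2.38.

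Among the collagenases, which make the opening cut in fibrillar collagen, both expressed members are named. Mmp13, the main interstitial collagenase of rodents (chromosome 9, 7272514 to 7283331, plus strand, GRCm38), was at 6.19, 6.08 and 6.21 log2 CPM in scrambled and 5.28, 5.14 and 5.32 in anti-miR-106b libraries at day 3, and 6.50, 5.56 and 4.80 and then 6.09, 6.24 and 5.66 at day 7. All anti-miR-106b animals were below all scrambled animals at day 3, while at day 7 the scrambled animals spread from 4.80 to 6.50 and enclosed the others. The day 3 difference was -0.92 ± 0.29 (adjusted p = 0.0247), a 1.89-fold lower level, and Mmp13 then rose with anti-miR-106b by 0.75 ± 0.29 (adjusted p = 0.028), which total-count scaling takes to 0.13 (0.676). Without any 1 of the 6 day 3 libraries the day 3 call was lost (adjusted p 0.0523 to 0.0779), and so was the rise without anti-miR-106b replicates 1 or 2 of either day (0.053 to 0.0941). Over 25 alternatives the day 3 difference stayed between -0.978 and -0.727 (adjusted p 4.36e-07 to 0.0779). In scrambled muscle the change was -0.54 ± 0.29 (adjusted p = 0.113), and -0.98 (0.000392) without scrambled day 7 replicate 1. Mmp8, the collagenase stored by neutrophils, was at 0.11, 0.01 and 0.25 log2 CPM in scrambled and 0.50, 0.82 and 0.62 in anti-miR-106b libraries at day 3, and -2.41, -3.07 and -2.34 and then -2.10, -3.14 and -2.27 at day 7. It fell 6.63-fold in scrambled and 8.86-fold in anti-miR-106b muscle (adjusted p = 1.11e-05 and 1.29e-06). This fall rests on 3 to 7 reads per day 7 library, in a gene kept through day 3 libraries only. The inhibitor difference at day 3, 0.52 ± 0.35, did not pass (adjusted p = 0.256).

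Gelatinases cut denatured collagen and basement membrane collagen. Mmp2, which is activated at the cell surface, was at 7.72, 7.88 and 7.80 log2 CPM in scrambled and 8.08, 8.05 and 7.98 in anti-miR-106b libraries at day 3, and 7.31, 7.81 and 7.80 and then 7.30, 7.54 and 7.52 at day 7. With anti-miR-106b it fell by 1.5 times from day 3 to day 7 (adjusted p = 0.000293), while the scrambled groups overlapped, with a change of -0.16 ± 0.11 (adjusted p = 0.219). At day 3 its arms did not overlap, with a difference of 0.24 ± 0.11 (adjusted p = 0.12), which passed without scrambled day 7 replicate 1 (0.0158). Mmp9, the gelatinase of leukocytes, was at 4.01, 4.15 and 4.18 log2 CPM in scrambled and 3.89, 4.83 and 4.48 in anti-miR-106b libraries at day 3, and 4.24, 3.79 and 3.31 and then 3.38, 4.66 and 3.35 at day 7. It passed in none of the 5 comparisons. Within anti-miR-106b its animals spread from 3.89 to 4.83 at day 3 and from 3.35 to 4.66 at day 7. Its change with time in anti-miR-106b muscle, -0.60 ± 0.32, passed without anti-miR-106b day 3 replicate 1 (adjusted p = 0.0338) or day 7 replicate 2 (0.00228).

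The stromelysins Mmp3 and Mmp11 and the metalloelastase Mmp12 fell with time in both arms. Mmp12, the macrophage elastase (chromosome 9, 7344381 to 7369499, plus strand), was at 5.98, 5.61 and 5.76 log2 CPM in scrambled and 5.06, 5.33 and 5.20 in anti-miR-106b libraries at day 3, and 1.52, 1.51 and 2.05 and then 3.65, 0.92 and 3.01 at day 7. Every day 7 library was below every day 3 library. The fall was -4.09 ± 0.47 in scrambled muscle (adjusted p = 4.3e-06), 17-fold, and -2.67 ± 0.47 with anti-miR-106b (adjusted p = 0.00012), 6.36-fold. At day 3 the anti-miR-106b animals were all lower, but the difference of -0.59 ± 0.47 did not pass (adjusted p = 0.346) with a spread shared by all groups. At day 7, 2 anti-miR-106b animals were above and 1 was below all scrambled animals. Fitted on the day 3 groups alone, the same difference had an adjusted p of 9.98e-05, and without anti-miR-106b day 7 replicate 2 it had 0.0182. Part of the gene, 157 exon bases, overlaps another gene on the opposite strand in GENCODE M21, and whether reads were counted by strand is not given in the sources used here.

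Mmp3, stromelysin 1, was at 5.24, 5.22 and 5.18 log2 CPM in scrambled and 4.78, 4.69 and 4.83 in anti-miR-106b libraries at day 3, and 3.12, 4.05 and 4.05 and then 4.11, 3.36 and 4.41 at day 7. It fell 2.77-fold in scrambled (adjusted p = 0.000123) and 1.75-fold in anti-miR-106b muscle (adjusted p = 0.00809). As for Mmp12, the anti-miR-106b animals were all lower at day 3, with a difference of -0.44 ± 0.25 (adjusted p = 0.174, and 2.79e-05 with the day 3 groups alone). Mmp11, stromelysin 3, which furin activates inside the cell, was at 3.43, 3.52 and 3.34 log2 CPM in scrambled and 3.92, 3.78 and 3.71 in anti-miR-106b libraries at day 3, and 2.82, 2.90 and 3.16 and then 2.81, 2.74 and 3.04 at day 7. It was 1.29-fold higher with the inhibitor at day 3 (difference 0.37 ± 0.11, adjusted p = 0.0179), with no overlap of the arms. This call was lost without scrambled replicate 3 (0.0751) or anti-miR-106b replicate 1 (0.078) of day 3. Mmp11 fell in both arms, with log2 changes of -0.47 ± 0.11 and -0.94 ± 0.11 (adjusted p = 0.00175 and 2.27e-06), and quantile normalization takes the scrambled change to -0.14 (0.205). It shares 155 exon bases with Chchd10 on the opposite strand, a gene at a median of 8.86 log2 CPM.

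All 3 expressed membrane-anchored proteases fell with time in both arms, where 35.3% of all tested genes fell in scrambled and 40.8% in anti-miR-106b muscle. Mmp14 was also higher with the inhibitor at day 3. Mmp14, which activates pro-Mmp2 together with Timp2, was at 6.87, 6.95 and 6.83 log2 CPM in scrambled and 7.31, 7.30 and 7.42 in anti-miR-106b libraries at day 3, and 5.63, 6.15 and 6.33 and then 5.74, 5.79 and 5.98 at day 7. The arms were apart at day 3, by 0.46 ± 0.13 (adjusted p = 0.0163), and overlapped at day 7. Without replicate 3 of either day 3 group the adjusted p was 0.0583 and 0.0584. Mmp14 fell 1.8-fold in scrambled and 2.85-fold in anti-miR-106b muscle (adjusted p = 7.35e-05 and 1.33e-07). Mmp15, another membrane-type protease, was at 5.37, 5.33 and 5.32 log2 CPM in scrambled and 5.52, 5.45 and 5.41 in anti-miR-106b libraries at day 3, and 5.06, 5.20 and 5.27 and then 5.05, 5.02 and 5.07 at day 7. It fell in both arms, with log2 changes of -0.16 ± 0.07 and -0.41 ± 0.07 (adjusted p = 0.0405 and 4.73e-05), the smallest passing change in scrambled muscle. That scrambled call was lost without any 1 of the 3 scrambled day 3 libraries (0.0706 to 0.115), without anti-miR-106b day 3 replicate 2 (0.0531) and without scrambled day 7 replicates 1 (0.174) or 2 (0.0582). Mmp25, a leukocyte protease with a lipid anchor, was at -0.16, 0.23 and -0.28 log2 CPM in scrambled and 0.50, 0.12 and 0.32 in anti-miR-106b libraries at day 3, and -3.89, -3.07 and -1.77 and then -1.75, -2.43 and -2.06 at day 7. It fell 7.16-fold and 5.25-fold (adjusted p = 9.39e-05 and 0.000268), to 2 to 9 reads per day 7 library. Mmp25 was kept through day 3 libraries only, which favoured its fall.

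Mmp23, whose membrane-bound precursor is released by cleavage (chromosome 4, 155650655 to 155653384, minus strand), gave the largest gain with the inhibitor among the genes that passed at day 3. It was at 3.95, 3.88 and 3.89 log2 CPM in scrambled and 4.63, 4.82 and 4.63 in anti-miR-106b libraries at day 3, and 2.23, 2.79 and 2.94 and then 2.64, 2.53 and 2.68 at day 7. The anti-miR-106b animals of day 3 were above all 9 other libraries, and the day 7 arms overlapped. The day 3 difference was 0.79 ± 0.14 (adjusted p = 0.000989), and the falls by day 7 were 2.39-fold in scrambled and 4.23-fold in anti-miR-106b muscle (adjusted p = 3.74e-06 and 1.01e-08). Mmp19 was at 4.09, 4.21 and 3.99 log2 CPM in scrambled and 3.86, 3.91 and 3.90 in anti-miR-106b libraries at day 3, and 2.09, 2.66 and 2.55 and then 2.82, 1.97 and 2.59 at day 7. It fell 3.17-fold and 2.7-fold (adjusted p = 3.19e-06 and 6.33e-06), and its inhibitor difference at day 3 was -0.21 ± 0.18 (adjusted p = 0.402). Mmp27 was at 0.79, 0.98 and 0.81 log2 CPM in scrambled and 1.30, 1.30 and 1.58 in anti-miR-106b libraries at day 3, and -1.33, -2.11 and -0.96 and then -1.60, -0.98 and -0.89 at day 7. It fell 5.01-fold and 5.85-fold (adjusted p = 1.01e-05 and 1.96e-06), to 8 to 16 reads per day 7 library, and was kept through day 3 libraries only. Its day 3 difference of 0.53 ± 0.29 did not pass (adjusted p = 0.174) although the arms did not overlap.

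The 4 inhibitors split into pairs. Timp1 and Timp2 were high at day 3 and fell, and Timp3 and Timp4 were low at day 3 and rose, in both arms; with total-count scaling the values of Timp3 came to 0.03 and 0.15 and did not pass (adjusted p = 0.868 and 0.394). Timp1, a broad inhibitor of secreted proteases (X chromosome, 20870166 to 20874735), was at 6.18, 5.91 and 6.03 log2 CPM in scrambled and 6.40, 6.45 and 6.37 in anti-miR-106b libraries at day 3, and 4.95, 5.15 and 4.37 and then 5.54, 4.62 and 5.18 at day 7. The anti-miR-106b animals were all higher at day 3, but the difference of 0.37 ± 0.20 did not pass (adjusted p = 0.176). By day 7 it fell 2.33-fold in scrambled and 2.45-fold in anti-miR-106b muscle (adjusted p = 0.000123 and 4.46e-05). Timp2, which both inhibits Mmp2 and helps to activate it, was at 8.50, 8.43 and 8.45 log2 CPM in scrambled and 8.74, 8.70 and 8.68 in anti-miR-106b libraries at day 3, and 7.57, 7.98 and 7.86 and then 7.78, 7.74 and 7.78 at day 7. It was 1.18-fold higher with the inhibitor at day 3 (difference 0.24 ± 0.08, adjusted p = 0.0378), a call lost without any 1 of the 6 day 3 libraries (0.0585 to 0.108). Its falls were 1.58-fold and 1.92-fold (adjusted p = 1.22e-05 and 1.64e-07).

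Timp3, which stays bound to matrix and also blocks ADAMTS proteases, was at 3.72, 4.03 and 3.96 log2 CPM in scrambled and 3.32, 3.49 and 3.40 in anti-miR-106b libraries at day 3, and 4.38, 4.39 and 4.26 and then 4.48, 4.37 and 3.71 at day 7. All anti-miR-106b animals were below the scrambled ones at day 3 (-0.50 ± 0.16, adjusted p = 0.0248), and 1 anti-miR-106b animal stood low at day 7. That call was lost without scrambled replicates 2 (0.0955) or 3 (0.0785) or anti-miR-106b replicates 1 (0.0796) or 3 (0.0605) of day 3. Timp3 rose by 0.44 ± 0.16 in scrambled muscle (adjusted p = 0.0235, and 0.0996 without scrambled day 3 replicate 1 or 0.0633 without day 7 replicate 2) and by 0.78 ± 0.16 with anti-miR-106b (adjusted p = 0.000413). Its exons share 1733 bases with Syn3 on the opposite strand, a gene at a median of -2.37 log2 CPM. Timp4, an inhibitor typical of heart and muscle, was at 1.66, 2.24 and 2.00 log2 CPM in scrambled and 1.52, 0.80 and 1.17 in anti-miR-106b libraries at day 3, and 3.60, 3.30 and 2.65 and then 3.92, 3.49 and 3.21 at day 7. The arms did not overlap at day 3 (-0.81 ± 0.25, adjusted p = 0.0231) and did at day 7. Without scrambled replicates 2 (0.0984) or 3 (0.0654) or anti-miR-106b replicates 2 (0.108) or 3 (0.0561) of day 3, the call was lost. Timp4 rose 2.32-fold in scrambled and 5.2-fold in anti-miR-106b muscle (adjusted p = 0.000739 and 8.64e-07), the largest rise in the family.

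The 7 proteoglycanases cut versican, aggrecan and related core proteins. With the inhibitor at day 3, 4 of them were lower and none was higher (all tested genes: 19.4% and 16.3%). This count rests on the authors' scaling. With total counts in limma, Adamts8 (adjusted p = 0.0582) and Adamts15 (0.294) no longer passed, and Adamts9 passed as higher (0.32, adjusted p = 0.029). Adamts5 (chromosome 16, 85856173 to 85901828, minus strand), an aggrecanase that also clears versican, was at 5.18, 5.60 and 5.52 log2 CPM in scrambled and 4.74, 4.77 and 4.80 in anti-miR-106b libraries at day 3, and 5.64, 5.63 and 5.63 and then 6.11, 5.94 and 6.18 at day 7. At day 3 the anti-miR-106b animals were the lowest of all 12 libraries and at day 7 they were the highest. The day 3 difference was -0.66 ± 0.09 (adjusted p = 0.000244) and the day 7 difference 0.44 ± 0.09 (adjusted p = 0.0935). Adamts5 rose 2.47-fold with anti-miR-106b (adjusted p = 1.9e-08) and was at 0.20 ± 0.09 in scrambled muscle (adjusted p = 0.0772, and 0.0224 without scrambled day 3 replicate 2). Adamts1, its neighbour at a distance of 53.1 kb (85793827 to 85803113), was at 4.32, 4.44 and 4.55 log2 CPM in scrambled and 3.96, 3.90 and 3.94 in anti-miR-106b libraries at day 3, and 4.53, 4.59 and 4.49 and then 5.05, 4.73 and 5.02 at day 7. The order of the groups was the same: lowest with the inhibitor at day 3 (-0.51 ± 0.09, adjusted p = 0.000798) and highest with it at day 7 (0.39 ± 0.09, adjusted p = 0.107). Its rise with anti-miR-106b was 2-fold (adjusted p = 1.36e-07), and in scrambled muscle the days differed by 0.10 ± 0.09 (adjusted p = 0.324), a value that total-count scaling turns to -0.31.

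Adamts4, an aggrecanase, went the other way with time and was at 3.37, 3.34 and 3.47 log2 CPM in scrambled and 3.40, 3.56 and 3.54 in anti-miR-106b libraries at day 3, and 1.83, 1.88 and 2.11 and then 1.93, 1.40 and 1.54 at day 7. It fell 2.73-fold in scrambled and 3.67-fold in anti-miR-106b muscle (adjusted p = 5.11e-07 and 1.31e-08), with no overlap between days, and the inhibitor difference at day 3 was 0.11 ± 0.13 (adjusted p = 0.546). Adamts15 was at 3.57, 3.73 and 3.59 log2 CPM in scrambled and 3.16, 3.39 and 3.29 in anti-miR-106b libraries at day 3, and 2.87, 2.89 and 3.25 and then 2.65, 2.62 and 2.77 at day 7. The anti-miR-106b animals were below the scrambled ones on both days, with differences of -0.35 ± 0.11 at day 3 (adjusted p = 0.0243) and -0.32 ± 0.11 at day 7 (adjusted p = 0.29). The day 3 call was lost without scrambled replicates 2 (0.1) or 3 (0.0543) or anti-miR-106b replicates 1 (0.0996) or 3 (0.0572). Adamts15 fell 1.54-fold and 1.51-fold (adjusted p = 0.000198 and 0.000195), and quantile normalization takes the anti-miR-106b change to -0.17 (0.124).

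Adamts8, which lies 20.1 kb from Adamts15 on chromosome 9, ranged from 1.50 to 3.82 log2 CPM. It was lower with the inhibitor at day 3 (-0.83 ± 0.27, adjusted p = 0.0302) and rose with time in both arms (0.88 ± 0.27 and 1.54 ± 0.27, adjusted p = 0.0114 and 0.000133). The day 3 call was lost without scrambled replicates 2 or 3 or any anti-miR-106b library of day 3 (0.0612 to 0.145), and the scrambled rise without scrambled replicate 1 of day 3 (0.064) or of day 7 (0.0531). Adamts20, between 2.35 and 4.29 log2 CPM, also rose in both arms (0.82 ± 0.21 and 1.13 ± 0.21, adjusted p = 0.00324 and 0.000191). Its day 3 difference of -0.55 ± 0.21 missed the threshold (adjusted p = 0.0547) and passed without scrambled day 3 replicate 2 (0.0459) or scrambled day 7 replicates 1 (0.00365) or 3 (0.0195). Adamts9, between 2.44 and 3.08 log2 CPM, rose in scrambled muscle by 0.48 ± 0.10 (adjusted p = 0.000901), and its value with anti-miR-106b was 0.11 ± 0.10 (adjusted p = 0.349). For this group of genes the rise rests on the authors' scaling, since with total counts 4 of these scrambled or anti-miR-106b values of Adamts8, Adamts9 and Adamts20 no longer passed as higher.

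The procollagen N-proteinases trim the amino end of fibrillar procollagens, apart from Adamts3, which acts mainly on a lymphatic growth factor. Levels of Adamts14 (chromosome 10, 61197112 to 61273438, minus strand) were 4.83, 4.54 and 4.58 log2 CPM in scrambled and 5.06, 4.95 and 4.85 in anti-miR-106b libraries at day 3, and 1.94, 2.04 and 2.50 and then 2.07, 2.01 and 2.51 at day 7. It fell 5.62-fold in scrambled and 6.76-fold in anti-miR-106b muscle (adjusted p = 2.65e-08 and 1.96e-09), the largest fall of any ADAMTS gene. Its day 3 arms did not overlap, at 0.31 ± 0.15 (adjusted p = 0.138). Adamts2 was at 5.88, 6.11 and 6.04 log2 CPM in scrambled and 6.09, 6.02 and 5.95 in anti-miR-106b libraries at day 3, and 5.25, 5.52 and 5.82 and then 5.36, 5.43 and 5.46 at day 7. It fell 1.4-fold and 1.52-fold (adjusted p = 0.00184 and 0.000204), and the day 3 arms were level within their spread (0.01 ± 0.11, 95% interval -0.23 to 0.25). Adamts3 was at -0.54, 0.12 and -0.05 log2 CPM in scrambled and -0.15, -0.87 and -0.33 in anti-miR-106b libraries at day 3, and -0.58, -0.05 and 0.12 and then 0.41, 0.15 and -0.50 at day 7. It passed in no comparison, and its groups overlapped in all 4 comparisons of 2 groups.

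Among the other ADAMTS genes, Adamts7, which cuts cartilage oligomeric matrix protein, was at 3.38, 2.88 and 3.23 log2 CPM in scrambled and 3.71, 3.93 and 3.65 in anti-miR-106b libraries at day 3, and 1.41, 1.73 and 2.25 and then 1.65, 1.42 and 1.55 at day 7. The day 3 arms did not overlap, at 0.60 ± 0.18 (adjusted p = 0.0212), and the call was lost without replicate 2 of the scrambled (0.104) or the anti-miR-106b group (0.0892). Adamts7 fell 2.58-fold and 4.68-fold (adjusted p = 1.91e-05 and 6.97e-08). Adamts12, its closest relative, was at 4.62, 4.54 and 4.58 log2 CPM in scrambled and 4.55, 4.49 and 4.61 in anti-miR-106b libraries at day 3, and 3.08, 3.75 and 4.07 and then 3.45, 3.28 and 3.68 at day 7. It fell as well, 1.93-fold and 2.12-fold (adjusted p = 0.000393 and 8.05e-05), but showed no difference at day 3 (-0.03 ± 0.18, 95% interval -0.42 to 0.36). Adamts10, a protein of fibrillin microfibrils, was at 4.42, 4.39 and 4.42 log2 CPM in scrambled and 4.58, 4.67 and 4.48 in anti-miR-106b libraries at day 3, and 3.90, 3.94 and 4.08 and then 3.74, 3.66 and 3.78 at day 7. It was above scrambled at day 3 and below at day 7 without overlap, with differences of 0.16 ± 0.07 and -0.25 ± 0.07 (adjusted p = 0.1 and 0.229), and fell 1.35-fold and 1.8-fold (adjusted p = 0.000142 and 1.2e-07).

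Adamts6, the nearest relative of Adamts10, was at 1.72, 1.39 and 1.62 log2 CPM in scrambled and 1.71, 1.98 and 1.92 in anti-miR-106b libraries at day 3, and 0.31, 0.78 and 0.76 and then 0.81, 1.05 and 0.88 at day 7. Its falls were 1.94-fold in each arm (adjusted p = 0.000149 and 9.77e-05), and the inhibitor differences were 0.29 ± 0.16 at day 3 and 0.29 ± 0.16 at day 7 (adjusted p = 0.181 and 0.537). Adamts16 and Adamts17 stayed between -0.79 and 0.75 log2 CPM and passed in none of the 5 comparisons. The change of Adamts16 with time in anti-miR-106b muscle, -0.50 ± 0.23 (adjusted p = 0.0599), passed without replicate 2 of scrambled day 3 (0.0452) or of anti-miR-106b day 7 (0.043).

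The ADAMTS-like proteins went in different directions. Adamtsl2, which binds fibrillin and latent TGF-beta complexes, was at 2.37, 1.98 and 2.11 log2 CPM in scrambled and 2.62, 2.96 and 2.68 in anti-miR-106b libraries at day 3, and 0.79, 1.10 and 0.84 and then 1.22, 0.87 and 0.46 at day 7. It was 1.51-fold higher with the inhibitor at day 3 (adjusted p = 0.0233), a call lost without scrambled replicates 2 (0.0968) or 3 (0.0713) or anti-miR-106b replicate 2 (0.105), and fell 2.37-fold and 3.74-fold with time (adjusted p = 4.8e-05 and 3.88e-07). Adamtsl5 was at 5.92, 5.99 and 6.01 log2 CPM in scrambled and 5.71, 5.70 and 5.51 in anti-miR-106b libraries at day 3, and 6.69, 6.31 and 6.20 and then 6.73, 6.43 and 6.76 at day 7. It was lower with the inhibitor at day 3 (-0.34 ± 0.12, adjusted p = 0.0385), which was lost without any 1 of the 6 day 3 libraries (0.0579 to 0.137), and rose by 0.42 and 1.00 on the log2 scale (adjusted p = 0.00555 and 2.45e-06), the scrambled rise being 0.016 (0.888) with total-count scaling. Adamtsl4, a protein of fibrillin fibres in the lens zonule and elsewhere, was at 3.84, 4.00 and 4.04 log2 CPM in scrambled and 3.72, 3.90 and 3.71 in anti-miR-106b libraries at day 3, and 4.47, 4.09 and 4.33 and then 4.34, 4.43 and 4.34 at day 7. It rose by 0.34 and 0.59 (adjusted p = 0.00677 and 6.22e-05), which total-count scaling turns to -0.07 and -0.03.

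Adamtsl1 was at 2.80, 2.68 and 2.62 log2 CPM in scrambled and 2.94, 2.60 and 2.83 in anti-miR-106b libraries at day 3, and 2.43, 2.60 and 2.75 and then 2.55, 2.40 and 2.36 at day 7. It fell with anti-miR-106b, with a log2 change of -0.36 ± 0.12 (adjusted p = 0.0127, and 0.0659 without anti-miR-106b day 3 replicate 1), which quantile normalization turns to 0.10 (0.4), while the scrambled days overlapped. Adamtsl3, between 1.72 and 2.83 log2 CPM, fell with anti-miR-106b, with a log2 change of -0.50 ± 0.18 (adjusted p = 0.0233), which was lost without anti-miR-106b day 3 replicates 2 (0.0701) or 3 (0.0777) or day 7 replicate 3 (0.129), and came to -0.023 (0.909) with quantile normalization. Its day 3 difference, 0.41 ± 0.18 (adjusted p = 0.0947), passed without that day 7 library (0.0245).

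**Figure D4:**
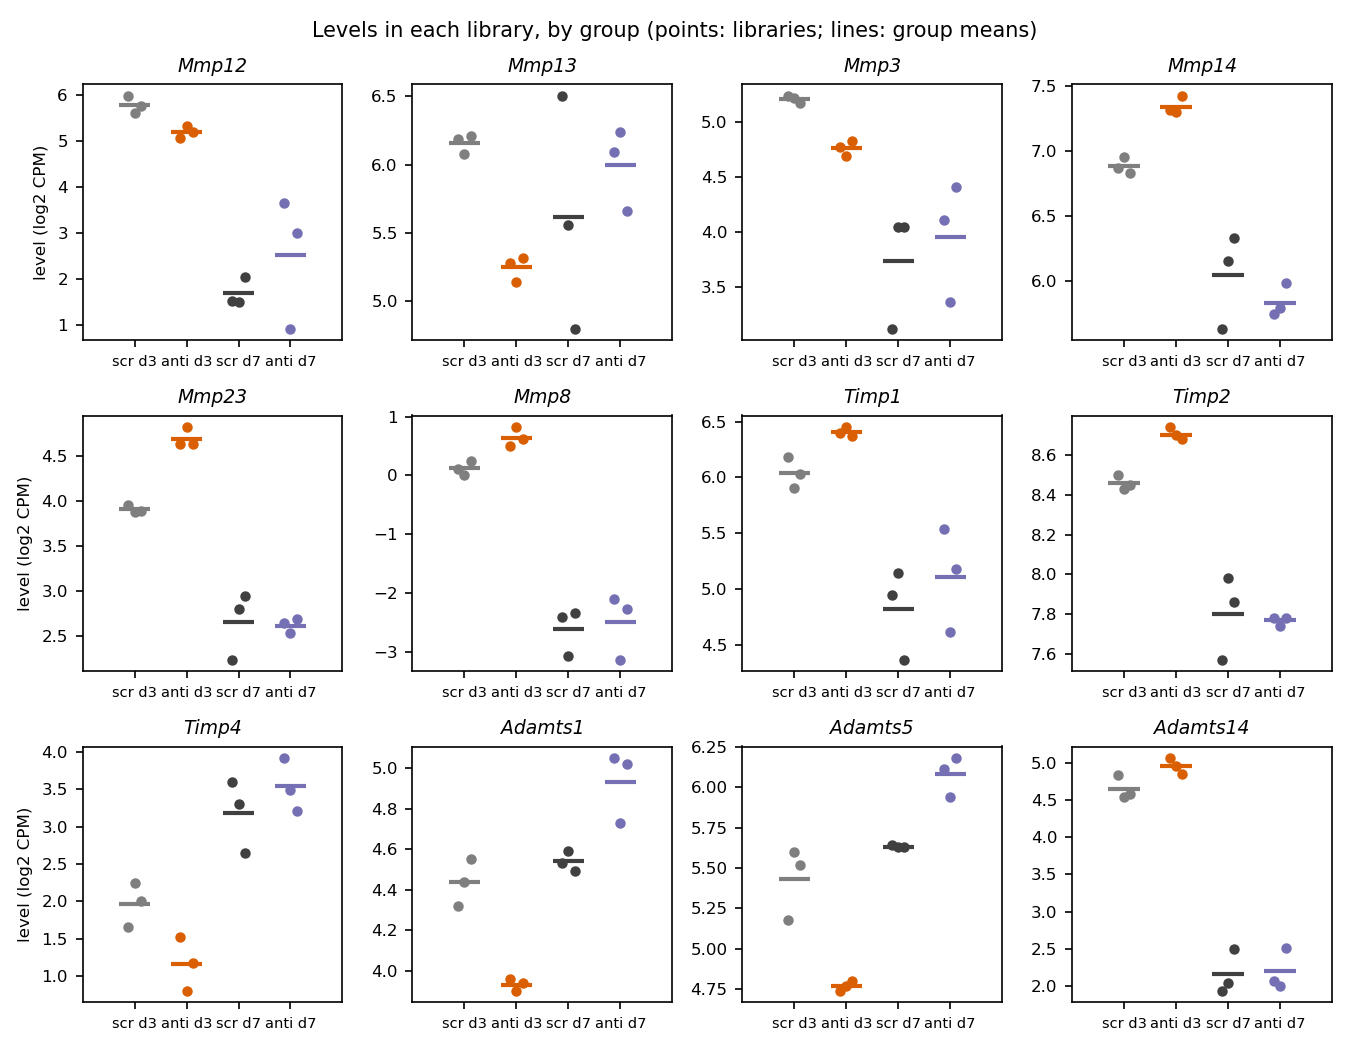
Level of 12 genes in every library, in log2 CPM, with a panel per gene and a column per group (scr, scrambled; anti, anti-miR-106b; d3 and d7, day 3 and day 7). Points are libraries and lines are group means; Adamts1 and Adamts5 are lowest with anti-miR-106b at day 3 and highest with it at day 7, and Mmp12 spreads from 0.92 to 3.65 within anti-miR-106b day 7.

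The inhibitor effect itself differed between the days for 10 of the 38 genes (26.3%), 5 upward and 5 downward, where 22.3% of all tested genes passed, 13.2% upward and 9.07% downward. This is the interaction of inhibitor and day in limma. Adamts5 (1.11 ± 0.13, adjusted p = 0.000549) and Adamts1 (0.90 ± 0.12, adjusted p = 0.000864) had the smallest p, moving from lower with the inhibitor at day 3 to a higher mean at day 7. Mmp13 (1.29 ± 0.41), Timp4 (1.17 ± 0.36) and Adamtsl5 (0.58 ± 0.17) moved the same way (adjusted p = 0.0374, 0.0321 and 0.0245). Mmp23 (-0.82 ± 0.20), Adamts10 (-0.41 ± 0.11), Mmp14 (-0.66 ± 0.19), Adamts7 (-0.86 ± 0.26) and Mmp11 (-0.47 ± 0.15) moved downward (adjusted p = 0.0115, 0.0138, 0.0234, 0.0308 and 0.0434). With total-count scaling, when 31.0% of all genes passed at a median of -0.22, 2 of the 38 passed upward, Adamts1 and Adamts5, and 11 downward.

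Adamts1, Adamts5, Adamts10 and Mmp23 kept this call under all 24 alternatives. The others lost it in fits that left out 1 library. In such fits 14.7% to 32.4% of all tested genes passed, against 22.3% with all libraries. Mmp13 lost it without any 1 day 3 library, anti-miR-106b day 7 replicates 1 or 2 or scrambled day 7 replicate 2 (adjusted p 0.0613 to 0.0836). Its values in these fits were 1.17 to 1.33, against 1.29 with all libraries. Mmp11 lost it without any day 3 library, scrambled day 7 replicates 2 or 3 or anti-miR-106b day 7 replicates 1 or 2 (0.0515 to 0.108). Timp4 lost it without scrambled replicates 2 or 3 of either day, anti-miR-106b day 3 replicates 2 or 3 or anti-miR-106b day 7 replicates 1 or 2 (0.0512 to 0.0861). Adamts7 lost it without scrambled replicates 2 or 3 of either day, anti-miR-106b day 3 replicates 1 or 2 or day 7 replicate 2 (0.0503 to 0.0849). Adamtsl5 lost it without scrambled replicates 2 or 3 of either day, anti-miR-106b day 3 replicate 3 or day 7 replicates 1 or 3 (0.0525 to 0.062). Mmp14 lost it without replicate 3 of either day 3 group, replicate 1 of anti-miR-106b day 7 or replicate 2 of scrambled day 7 (0.0507 to 0.0597).

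Mmp12 was at 1.42 ± 0.66 in the same comparison and did not pass (adjusted p = 0.14), and was at 2.22 (adjusted p = 0.000898) without anti-miR-106b day 7 replicate 2. That library was also the one whose absence let Mmp3 pass (0.97, adjusted p = 0.0354). Mmp2 (-0.59, adjusted p = 0.0011), Mmp15 (-0.31, 0.0139) and Timp2 (-0.40, 0.00252) passed downward without scrambled day 7 replicate 1. Without anti-miR-106b day 7 replicate 1, Adamts4 (-0.58, 0.0192) and Adamtsl2 (-0.84, 0.0267) passed, without anti-miR-106b day 7 replicate 3 Timp3 did (0.58, 0.0112), and without anti-miR-106b day 3 replicate 2 Adamts9 did (-0.48, 0.0291).

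Along the chromosome 9 cluster the genes did not move as a block. At day 3 the inhibitor differences were negative for Mmp13, Mmp12 and Mmp3 (-0.92, -0.59 and -0.44) and positive for Mmp8 and Mmp27 (0.52 and 0.53). The animals of the arms did not overlap for all 5 genes, as for 60.5% of all tested genes. The test passed for Mmp13 alone, a call that was lost without any single day 3 library. With time 4 of the 5 fell in both arms (all tested genes: 35.3% and 40.8%), and Mmp13 passed as a fall in neither. A fall of Mmp8 and Mmp27 was favoured, since both were kept through day 3 libraries only. Mmp8 and Mmp27, whose bodies are 2.9 kb apart on the same strand, changed by -2.73 ± 0.35 and -2.33 ± 0.29 in scrambled muscle. Those values rest on 4 to 6 and 8 to 16 reads per scrambled day 7 library, so the sizes of these falls are not compared.

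**Figure D5:**
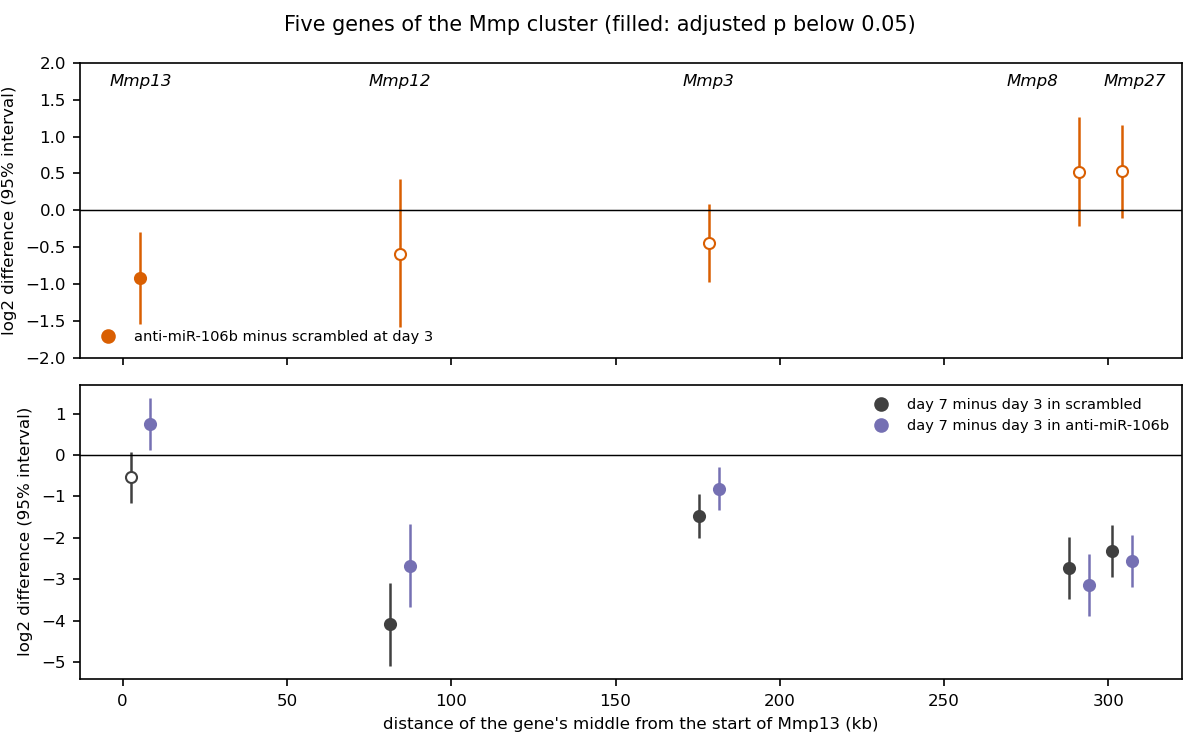
Genes of the chromosome 9 Mmp cluster by distance from the start of Mmp13, in kb. The vertical axes are log2 differences with 95% intervals, for the inhibitor at day 3 (top) and for day 7 minus day 3 in both arms (bottom). Filled points have an adjusted p below 0.05. In the top panel the 3 genes on the left lie below 0 and the 2 on the right above it, with Mmp13 alone filled.

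Genes that act with or on these proteases were counted from lists of such genes, which were drawn up with earlier results of these data known. Of 23 tested activators, inhibitors and partners, 7 were higher and 2 lower with the inhibitor at day 3, at a list median of 0.10. Over all tested genes 16.3% were higher and 19.4% lower. Thbs1 (0.65 ± 0.15, adjusted p = 0.0052), Lrp1, the receptor that takes up many of these proteases (0.36 ± 0.07, 0.00206), and the proprotein convertase Furin (0.30 ± 0.06, 0.003) were higher. At day 7 none of the 23 passed, where 0.064% of all tested genes did. With time 14 fell and 6 rose in scrambled muscle (all tested genes: 35.3% and 32.9%), and 15 fell and 5 rose with anti-miR-106b (40.8% and 37.9%). Among the falls were the urokinase receptor Plaur and the Mmp9-binding receptor Cd44 (-2.67 ± 0.23 and -2.17 ± 0.14 in scrambled muscle, adjusted p = 3.59e-07 and 4.08e-08).

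Of 27 tested matrix substrates 10 were higher and 1 lower with the inhibitor at day 3, at a median of 0.22, where 16.3% of all tested genes were higher and 19.4% lower. Elastin (Eln, 1.14 ± 0.12, adjusted p = 4.01e-05), tenascin C (Tnc, 1.11 ± 0.13, 5.79e-05), periostin (Postn, 0.82 ± 0.08, 3.82e-05) and biglycan (Bgn, 0.68 ± 0.12, 0.000747) had the smallest p. By day 7 16 substrates fell and 3 rose in scrambled muscle (all tested genes: 35.3% and 32.9%), and 19 fell and 5 rose with anti-miR-106b (40.8% and 37.9%). Of 12 tested metzincins outside the family 3 were higher and 1 lower at day 3: Adam12, known from regenerating muscle (0.59 ± 0.11, adjusted p = 0.00162), Adam15 (0.43 ± 0.08, 0.00129) and Adam23 (0.56 ± 0.16, 0.0146) against Adam9 (-0.22 ± 0.08, 0.0401). With time 9 of these 12 fell in each arm, and 1 rose, with anti-miR-106b.

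Cell markers also differed between the groups. The summed level of 10 macrophage markers was 3038 to 3111 CPM in scrambled and 4252 to 4643 in anti-miR-106b muscle at day 3, and 365 to 579 and 392 to 609 at day 7. Of the 10, 6 were higher with the inhibitor at day 3 and all 10 fell in both arms. Over all tested genes 16.3% were higher and 19.4% lower at day 3, and 35.3% and 40.8% fell in scrambled and anti-miR-106b muscle. Mature fast fibre markers summed to 72080 to 86690 CPM and 46130 to 50490 at day 3, with 9 of 10 lower under the inhibitor, and to 141700 to 160800 and 136600 to 149500 at day 7. Markers of fibroblasts and fibro-adipogenic progenitors summed to 3525 to 3784 and 4221 to 4810 CPM at day 3 (2 of 9 higher and 1 lower), and to 1781 to 2404 and 1932 to 2051 at day 7. Their sum was higher with the inhibitor at day 3, but the list's median difference was -0.14 on the log2 scale. Dcn, Lum and Col1a1 of this list are also among the matrix substrates. Neutrophil markers were sparse, with 3 of 9 above the limit, Retnlg, Cxcr2, Mpo, Elane, Ngp and Camp below it, and sums of 14.7 to 31.6 CPM at day 3 and 2.18 to 4.06 at day 7. Endothelial markers summed to 188 to 205 and 208 to 226 CPM at day 3 and to 307 to 326 and 231 to 258 at day 7. With the inhibitor 3 of 8 were higher at day 3 and 1 of 8 lower at day 7, and 6 of 8 passed downward for the change of its effect. Over all tested genes 0.064% passed at day 7 in either direction, and 9.07% passed downward for that change. The part of any of these cells in the changes of the family was not tested.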

How the data were processed

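Gene expression was measured by RNA sequencing in 12 tibialis anterior libraries, 3 per group. The deposited values are log2 CPM for 28116 genes. The tools named, per the submitters' processing notes, are featureCounts, STAR, limma 3.34.9, edgeR 3.20.9, Trim Galore 0.4.3.1 and FastQC 0.72 on build mm10, with settings and strand of counting not given in the sources used here. Steps between the values gave back whole reads (100% within 0.001), the authors' scaling factors and a prior of 0.25 reads; voom on these reads was an alternative.

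The log2 values were fitted with limma 3.58.1 in R 4.3.3 (4 group means, variance trend, 8 residual and 5.59 prior degrees of freedom) for 14063 genes at 1 CPM or more in at least 3 libraries, with Benjamini-Hochberg adjustment over all of them per comparison, 2-sided. The deposited log2 scale gets no further pseudocount. An exact permutation test of 3 against 3 cannot go below 0.1. p-values measure the spread between animals as labelled. Same-numbered libraries were not paired. The method was tested on simulated data. Genes named with every library's value are up to 4 per role, by smallest p over the 5 comparisons, and list genes are up to 4 per list by smallest p. Members and lists were chosen with earlier results of these data known. Lists of satellite cell, pericyte, tendon, mast cell and T or NK cell markers were also summed. Sequences are from RefSeq (GRCm38.p6) and GENCODE M21 transcripts. Alternatives were filters, added CPM of 1 or 5, scaling, weights, sample choice, a replicate block and single libraries left out.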

Additional observations from a re-analysis of the deposited data

Results flagged for a closer look

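The inhibitor effect differed between day 3 and day 7 for 10 genes by limma's interaction term, which is the reason they are listed here. Upward changes, on the log2 scale, were 1.11 for Adamts5, 0.90 for Adamts1, 1.29 for Mmp13, 1.17 for Timp4 and 0.58 for Adamtsl5. Downward changes were -0.82 for Mmp23, -0.41 for Adamts10, -0.66 for Mmp14, -0.86 for Adamts7 and -0.47 for Mmp11. Both neighbours on chromosome 16, Adamts1 and Adamts5, were lowest in the 3 anti-miR-106b animals of day 3 and highest in the 3 other anti-miR-106b animals of day 7. The day 7 differences alone did not pass with limma (adjusted p = 0.107 and 0.0935). Groups of 3 are too small for a test of single outlying samples.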

How the results depend on the processing

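Of the 38 genes 14 passed at day 3 (35.7% of all genes), and 26 with library weights (14 higher, 12 lower, 62.7% of all genes). With the 2 day 3 groups alone 25 did (13 and 12, 52.5%). Single libraries left out gave 4 to 16 genes, with 24.8% to 40.3% of all genes passing. For the inhibitor at day 7, single libraries left out gave 0 to 5 (0.0% to 3.2% of all genes). Without the day 7 library farthest from its group mean in each arm, an alternative chosen after seeing the data, 6 passed (4 higher, 2 lower, 3.9% of all genes). For the change of the effect 10 passed (22.3% of all genes), 16 with library weights (37.9%) and 4 without a variance trend (19.0%). Without the 2 farthest libraries 16 passed (29.6%), and with single libraries left out 4 to 13 did (14.7% to 32.4%). For the change with time the number of genes passing in either direction stayed within 1.5 times under every alternative run, but with total-count scaling the genes that rose went from 7 to 1 in scrambled and from 9 to 5 in anti-miR-106b muscle. Values that changed sign and passed before or after the change were those of Adamts1 (-0.307), Adamts5 (-0.208) and Adamtsl4 (-0.069) with total-count scaling and Adamtsl1 (0.266) with quantile normalization in scrambled muscle, and those of Adamts9 (-0.519) and Adamtsl4 (-0.033) with total counts and Adamtsl1 (0.104) with quantile normalization in anti-miR-106b muscle; values near 0 that passed neither way also changed sign. The cause was not tested.

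Replicate numbers did not pair the libraries: residuals of same-numbered libraries had correlations from -0.185 to 0.144. With a replicate block 16, 0 and 10 genes passed for the inhibitor at day 3, at day 7 and the change of its effect (34.0%, 0.0% and 20.9% of all genes). For time in scrambled and anti-miR-106b muscle 27 and 34 passed (64.8% and 76.7%). Leaving out a library leaves 2 in its group, assumed to vary like the others. Genes near 1 CPM rest on about 28.1 to 46.9 reads each. This limits the precision for Adamts3, Adamts16 and Adamts17, and for Mmp8 and Mmp25 at day 3. Day 7 libraries held only 3 to 7 reads of Mmp8, 2 to 9 of Mmp25 and 8 to 16 of Mmp27. The fold changes of Mmp8, Mmp25 and Mmp27 with time rest on these few reads.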

Other observations

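Marker lists that stand beside no single gene moved as follows. Over all tested genes 16.3% were higher and 19.4% lower with the inhibitor at day 3. With time 35.3% fell and 32.9% rose in scrambled muscle, and 40.8% and 37.9% with anti-miR-106b. Satellite cell and myoblast markers summed to 5956 to 6426 CPM in scrambled and 5832 to 6334 in anti-miR-106b muscle at day 3, with 6 of 9 higher under the inhibitor. With time 8 of 9 fell and 1 rose in each arm, while the sums were 6604 to 7063 and 6292 to 8021 CPM at day 7. Pericyte and smooth muscle markers summed to 570 to 655 and 773 to 882 CPM at day 3, with 4 of 7 higher, and to 533 to 554 and 455 to 525 at day 7. Tendon markers summed to 583 to 743 and 747 to 822 CPM at day 3, with 2 of 6 higher. Mast cell markers summed to 19.9 to 31.1 CPM over all libraries and none of 5 passed for the inhibitor with limma. T and NK cell markers summed to 8.4 to 8.5 and 13.6 to 16.7 CPM at day 3, with 1 of 3 tested higher.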
